A study of Mus musculus with 2 samples.

Results

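Macrophages with a low share of MHC class II transcripts were examined in mouse tumours. A cell counted as a macrophage where the complement transcripts C1qa, C1qb and C1qc made up at least 0.1% of its unique molecular identifiers (UMIs, counted RNA molecules) and it had no UMI of Krt20 or of the T cell receptor chains Cd3d, Cd3e and Cd3g. Members were selected on measured values: the summed share of H2-Aa, H2-Ab1 and H2-Eb1 lay below 0.0699% of UMIs, the median of all macrophages of both libraries together. The rule gave 651 class II-low macrophages out of 1303 macrophages and 16175 cells kept for holding 300 genes or more and no more than 20% mitochondrial UMIs. The other 652 macrophages are called class II-high. The cut divides a continuous range and marks no separate cell type: 100 control and 75 -SG macrophages had a share between 0.03% and 0.1%. The highest member reached 0.0697% and the fifth highest 0.0684%, while the lowest and the fifth lowest macrophage outside had 0.0699% and 0.0723%.

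The tumours were subcutaneous and came from mice on a control diet or on a serine/glycine-free diet (called -SG here), with 1 single-cell library of gene expression and T cell receptors per diet. Title and design text give the diet, and the labels give no mouse number, strain, age, tumour line or length of feeding, nor whether tumours were pooled. The labels' dissociation text speaks of human heart tissue, while organism, source and gene names are those of mouse tumours. With 1 library per group there is no replicate check and no test between diets: every interval below is an exact 95% interval that covers counting error only.

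Macrophages present extracellular antigen to CD4 T cells on MHC class II molecules, whose genes are switched on by the transactivator Ciita, itself induced by interferon-gamma. Tissue macrophages that clear dying cells and repair tissue often carry scavenger and mannose receptors such as Mrc1 (CD206), whereas cells freshly derived from blood monocytes carry Ccr2 and Ly6c2. C1q is secreted by most mature tissue macrophages and marks particles for uptake.

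The genes that chose the members lie side by side in the MHC, and their promoters carry a Y box, the CCAAT element bound by NF-Y in the complex that recruits Ciita. The 120 bases upstream of the RefSeq start of H2-Aa (GRCm38.p6, chr17:34287824-34287943, minus strand) and H2-Eb1 (chr17:34305747-34305866, plus strand) are shown 5′ to 3′, with each ATTGG, the Y box core, or its reverse complement in capitals.
H2-Aa: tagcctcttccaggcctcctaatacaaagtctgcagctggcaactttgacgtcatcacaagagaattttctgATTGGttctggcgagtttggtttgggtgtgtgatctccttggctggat
H2-Eb1: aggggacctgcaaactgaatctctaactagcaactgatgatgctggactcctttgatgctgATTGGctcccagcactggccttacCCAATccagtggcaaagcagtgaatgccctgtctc
H2-Aa held 1 match and H2-Eb1 held 2, 1 on each strand. Over the same length, 21.3% of 32851 RefSeq promoters held at least 1. A match is a description of letters and not evidence of binding.

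The members carried the macrophage programme. Apoe, the lipid carrier apolipoprotein E, stood at 3136 CPM (a gene's UMIs scaled to a common total of all UMIs in its group) in control and 2849 CPM in -SG members, against 9.39 and 3.63 CPM in non-immune cells, the cells without a UMI of Ptprc (CD45) or C1q. Ms4a7, a membrane protein of mature macrophages, was at 960 and 932 CPM, against 1.70 and 0.346 CPM. Adgre1 (F4/80) was at 177 and 172 CPM. All 14 macrophage markers averaged 20 CPM or more, but C1qa, C1qb and C1qc among them are present by the rule. Ptprc UMIs were found in 365 of 468 control and 132 of 183 -SG members.

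Markers of other cell types were then counted in members. Cells with a UMI of Cd3d, Cd3e, Cd3g or Krt20 had been removed by the rule, so those are 0 by selection. Cd8a, Cd8b1, Ncr1, Klre1, Ms4a1, Siglech, Krt8 and Epcam had no UMI in any member, and no member had a receptor contig. Per cell, the median summed level was 0 in both libraries for the dendritic, neutrophil, mast, T, NK, B, epithelial, fibroblast, endothelial and erythroid lists. Other genes of these lists were detected. A UMI of the conventional dendritic list was found in 119 control and 44 -SG members, and of the neutrophil list in 90 and 37. For the fibroblast, endothelial and B lists the counts were 71 and 27, 68 and 35, and 45 and 20. For the T, epithelial and NK lists they were 32 and 19, 22 and 6, and 4 and 1. The monocyte list had a median of 81.8 and 89.0 CPM per cell, and its defining gene Ly6c2 had UMIs in 15 control and 4 -SG members. Summed erythroid markers were at 469 CPM in control and 0 in -SG members, and 1892 of the 1898 control UMIs of Hbb-bs came from 1 cell. Summed mast cell markers were at 2.48 and 34.9 CPM, with a UMI in 11 of 468 control and 12 of 183 -SG members, and 27 of the 32 -SG UMIs of Tpsb2 came from 1 cell. The part of these cells in the results below was not tested. Summed fibroblast markers were at 263 and 198 CPM, and 155 of the 286 control UMIs of Col1a1 came from 1 cell. Members had a median of 10507 UMIs in the control and 11237 in the -SG library, and a median of 1.79% mitochondrial UMIs in both. The libraries held 8466 and 7999 barcodes, with 104 in common. Of these, 8 of the 468 control and 4 of the 183 -SG members carried such a barcode, and 1 was a member in both.

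Class II-low cells were the larger share of macrophages on the control diet and the smaller share on the -SG diet. They were 468 of 684 control macrophages, 68.4% (64.8 to 71.9), and 183 of 619 -SG macrophages, 29.6% (26.0 to 33.3), a ratio of 0.432 (0.362 to 0.514). All macrophages together made up 8.28% of control and 7.82% of -SG cells, a ratio of 0.945 (0.846 to 1.05). Of all cells, members were 5.66% and 2.31%. Macrophages with no class II UMI at all numbered 207 and 60. The median class II share over all macrophages was 0.0182% of UMIs in the control and 0.390% in the -SG library. Non-immune cells held 14.9 and 11.7 CPM of H2-Aa, against 36.0 and 64.4 CPM in members and 2688 and 4376 CPM in class II-high cells. With members taken from the lowest tertile of the pooled share, the ratio of shares was 0.318.

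**Figure D1:**
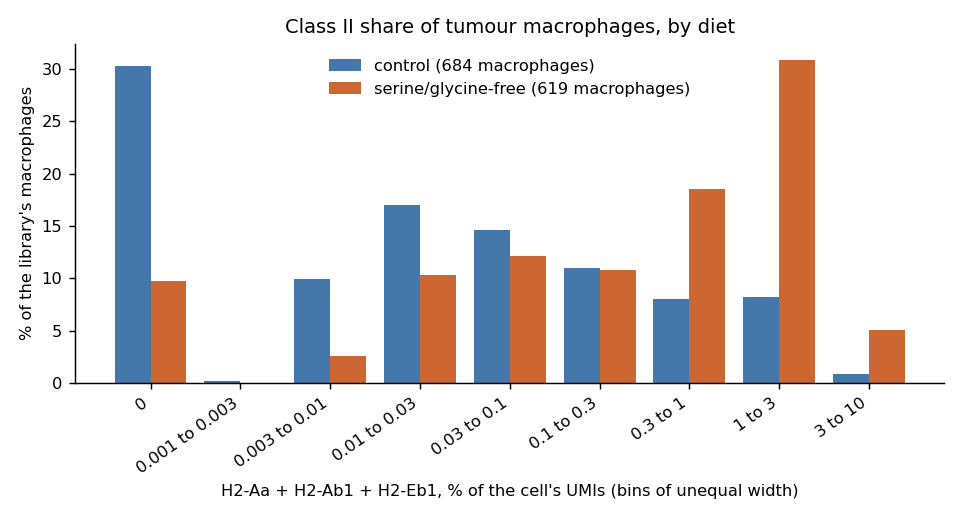
Macrophages of each library (bars, percent of the library's macrophages) by the share of H2-Aa, H2-Ab1 and H2-Eb1 in the cell's UMIs, in bins of unequal width; empty bins are left out. The bin without class II UMIs holds 30.3% of control and 9.69% of -SG macrophages, and the bin from 1% to 3% holds 8.19% and 30.9%.

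Members were then set beside class II-high macrophages within each library. The same cells supplied the rule, so these differences are a description with no test. Of the 5552 genes averaging 20 CPM or more in members, 0.738% were at least 1.5-fold higher and 0.991% at least 1.5-fold lower in members in both libraries, 41 and 55 genes. Genes were counted on ratios of CPM plus 5, while the ratios and folds printed for single genes are of CPM itself.

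The genes furthest above class II-high cells were taken first. Npl, which breaks down sialic acid, was at 91.7 CPM in members and 22.8 CPM in class II-high cells of the control library, and at 50.1 and 15.9 CPM in the -SG library. Fcrls, an Fc receptor-like gene known from microglia, was 3.23-fold and 2.48-fold higher. Pmp22, a membrane protein known from myelin, was 3.21-fold and 2.44-fold higher, and the carbonyl reductase Cbr2 2.09-fold and 2.89-fold. Gas6, which bridges dying cells to the receptors Axl and Mertk, was at 157 against 71.6 CPM and at 112 against 53.6 CPM. F13a1, the A chain of clotting factor XIII, was 1.67-fold and 2.10-fold higher. Podoplanin (Pdpn) was 1.87-fold and 2.21-fold higher.

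Some genes of this set were also high in non-immune cells. Spp1, the secreted protein osteopontin, was 2.04-fold and 1.77-fold higher in members, and non-immune cells held 6708 and 5194 CPM of it. Tm4sf1 was 2.12-fold and 2.03-fold higher, with 1111 and 977 CPM in non-immune cells. Pcolce, an enhancer of procollagen processing, was 2.04-fold and 1.86-fold higher, with 793 and 719 CPM there. The intracellular protease inhibitor Serpinb6a was 1.69-fold and 1.79-fold higher, with 589 and 523 CPM there. The part of RNA from those cells in these ratios was not tested. No member had more than 1% of its UMIs in a set of 13 genes high in non-immune cells, which holds Tm4sf1 and Pcolce. The set leaves out Spp1 and Serpinb6a, and 1% is far above the non-immune level of a gene such as Tm4sf1. That 0 therefore cannot show how much RNA was carried over. Ccl2, the ligand of Ccr2, was 1.85-fold and 1.66-fold higher in members, at 3281 and 2836 CPM against 128 and 113 CPM in non-immune cells.

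Among the genes furthest below class II-high cells, Cd74, the invariant chain that travels with class II molecules, was at 480 CPM against 8032 CPM in the control and at 649 CPM against 12858 CPM in the -SG library. H2-DMb2, a chain of the H2-M peptide editor, was at 30.5 against 316 CPM and at 25.03 against 386 CPM, and H2-DMa at a ratio of 0.495 and 0.410. Cxcl9, an interferon-gamma-inducible chemokine for T cells, had ratios of 0.395 and 0.305. The guanylate-binding proteins Gbp2 and Gbp4 had ratios of 0.532 and 0.475, and of 0.548 and 0.428. Il1b, the inflammatory cytokine, was at 186 against 545 CPM and at 97.0 against 453 CPM.

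The monocyte recruitment receptor Ccr2 had ratios of 0.403 and 0.408 in members over class II-high cells. Ly6c2 was at 15.4 against 234 CPM and at 2.68 against 93.5 CPM, and 51 of its 81 control UMIs in members lay in 1 cell. Ciita had 3 UMIs in control and 2 in -SG members, against 14.8 and 20.03 CPM in class II-high cells. Apoe, although a marker of both classes, had ratios of 0.601 and 0.477. The surface antigen Ly6a (0.488 and 0.454), the transcript AW112010 (0.492 and 0.340), Plbd1 (0.502 and 0.439), the lipase Pla2g7 (0.505 and 0.396) and the atypical chemokine receptor Ccrl2 (0.507 and 0.558) completed the set.

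**Figure D2:**
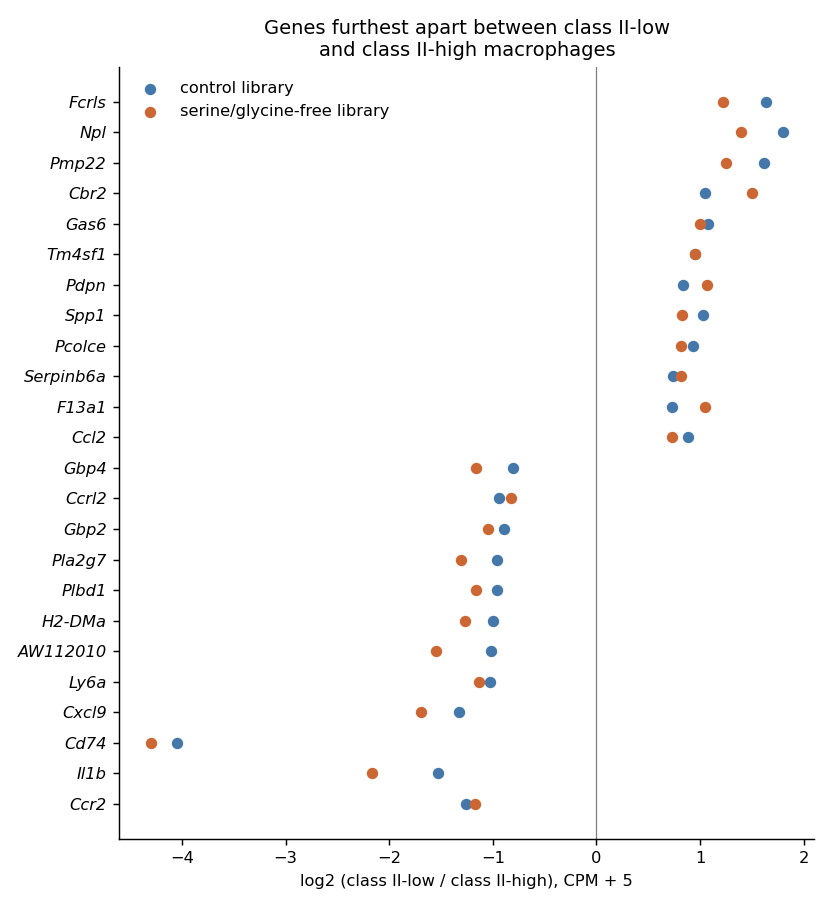
Log2 ratio of class II-low over class II-high macrophages (horizontal axis, CPM plus 5) for the 12 highest and 12 lowest named genes, with 1 point per library. Npl lies furthest right in the control library at 1.80 and Cbr2 in the -SG library at 1.499, and Cd74 lies furthest left at -4.05 in the control and -4.30 in the -SG library.

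By list, resident and alternatively activated macrophage genes were higher in members. Of 17 measured, 6 were at least 1.5-fold higher and 1 lower in both libraries, with a median log2 ratio of 0.63 in the control and 0.60 in the -SG library, beside 0.05 and 0.07 over all measured genes. Mrc1 was at 773 against 460 CPM and at 582 against 410 CPM. The scavenger receptor Cd163 was 2.16-fold and 2.14-fold higher, and the C-type lectin Mgl2 lower, with ratios of 0.526 and 0.255. Of 5 measured class II presentation genes beyond the rule, 3 were lower and 0 higher (medians -1.002 and -1.27). Of 17 interferon-gamma response genes, 4 were lower and 0 higher (medians -0.37 and -0.80). MHC class I presentation had 0 of 14 past the fold, with medians of -0.26 and -0.35. Arg1, the enzyme that degrades arginine, was 1.60-fold and 1.40-fold higher in members.

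Macrophages were also split into 4 groups by class II share, with class II-high cells divided at their own pooled median. Cells without a class II UMI, members with some, and the lower and upper part of the class II-high cells had Npl levels of 115, 78.7, 30.6 and 6.53 CPM in the control library. The -SG library did not keep that order, with 32.6, 56.2, 24.02 and 8.88 CPM. Mrc1 stood at 872, 717, 556 and 260 CPM in the same order, and in the -SG library at 684, 546, 456 and 369 CPM. Cxcl9 ran from 207 to 1010 CPM in the control and from 247 to 1393 CPM in the -SG library. Arg1 did not follow the order: it was at 276 CPM in control cells without a class II UMI and 533 CPM in members with some. Spp1 took opposite orders in the libraries, at 1170 and 2135 CPM in those control groups and 1516 and 996 CPM in the -SG ones. Cells without a class II UMI were shallower, with medians of 8632 and 7646 UMIs against 11957 and 12740 for the other members. Its part in the order was not tested.

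**Figure D3:**
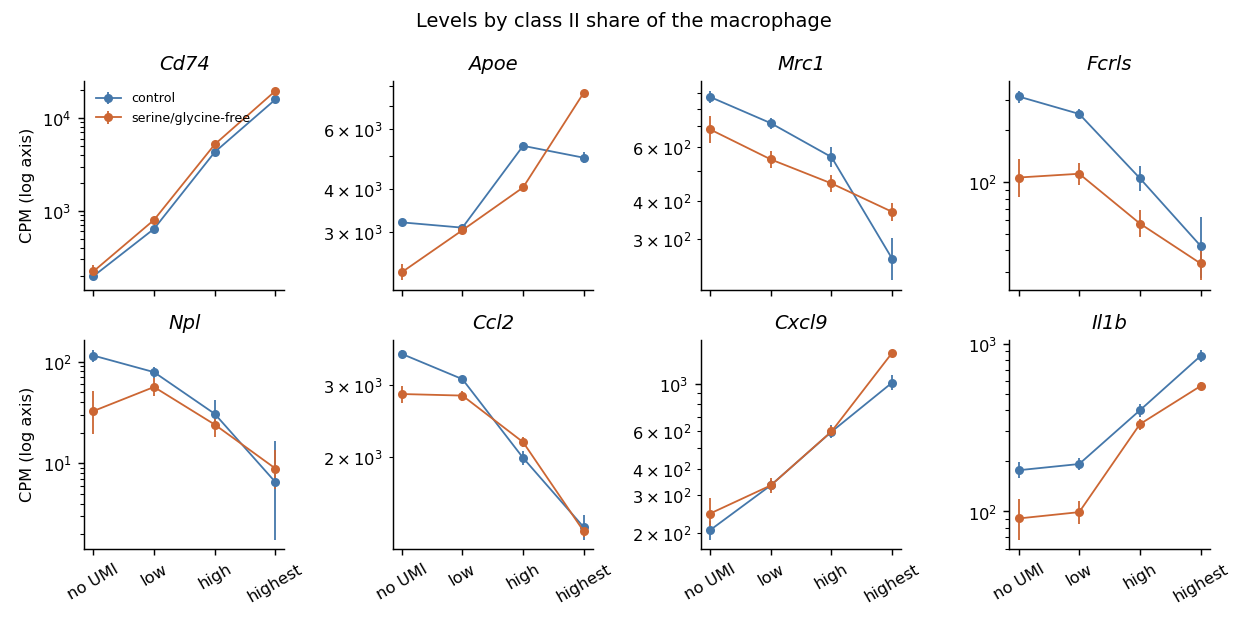
CPM (log axes) with exact Poisson intervals for 8 genes in 4 groups of macrophages ordered by class II share, from cells without a class II UMI and other members to the lower and upper part of class II-high cells, with 1 line per library. Mrc1, Fcrls and Ccl2 are lower in the last group than in the first in both libraries, and Cd74, Cxcl9 and Il1b are higher in the last group than in the first.

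Between diets, 1.8% of the 5552 measured genes were at least 1.5-fold higher and 1.8% at least 1.5-fold lower in -SG members, 100 genes each way, and the median log2 ratio over all measured genes was -0.06. At that share a short list can easily have 0 genes past the fold, so such a count does not show that its genes were unchanged. The genes furthest up were an interferon gene, metallothioneins, a fatty acid carrier, a neutrophil chemokine and stress-response genes. Ratios below are -SG over control. Values of class II-high or non-immune cells are given beside many of them, since many genes differed there as well.

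Ifnb1, which encodes interferon-beta, was at 13.7 CPM (10.7 to 17.3) in control and 98.8 CPM (86.2 to 113) in -SG members, a ratio of 7.20 (5.49 to 9.52). In class II-high cells it was at 20.7 and 88.3 CPM, a ratio of 4.27 (3.07 to 6.09), and in non-immune cells at 0.403 and 0.754 CPM. Few cells carried the transcript: 13 of 468 control and 24 of 183 -SG members had a UMI, and 83 of the 221 -SG UMIs came from 1 cell. Without the member with most UMIs in each library, the log2 ratio was 2.18 in place of 2.47, and it was 1.38 with the lowest tertile of the class II share. After thinning every cell to 2000 UMIs, 7.69% (4.16 to 12.8) of -SG and 1.60% (0.646 to 3.27) of control members had an Ifnb1 UMI, beside 0.0642% and 0.120% of non-immune control and -SG cells. Unthinned, the member shares were 13.1% and 2.78%. The Ifnb1 promoter holds a compact enhancer for interferon regulatory factors and NF-kappaB. The 180 bases upstream of its RefSeq start (GRCm38.p6, chr4:88522795-88522974, minus strand) are shown with AANNGAAA, a core of interferon regulatory factor elements searched on both strands, in capitals.
Ifnb1: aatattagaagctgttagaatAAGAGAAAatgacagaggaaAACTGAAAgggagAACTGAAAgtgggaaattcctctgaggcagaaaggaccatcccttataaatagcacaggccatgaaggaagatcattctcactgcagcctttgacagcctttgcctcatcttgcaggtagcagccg
It held 3 matches, and 2.28% of RefSeq promoters held at least 2 over that length.

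The metallothioneins, small proteins that bind zinc and copper, were higher in -SG members. Mt1 was at 854 CPM (829 to 880) in control and 1733 CPM (1679 to 1789) in -SG members, a ratio of 2.03 (1.94 to 2.12). Mt2 was at 70.4 and 240 CPM, a ratio of 3.40 (2.98 to 3.90). Class II-high cells had ratios of 1.76 and 2.55 for Mt1 and Mt2. Non-immune cells had higher levels and larger ratios, with 1813 and 6757 CPM of Mt1 and 496 and 2036 CPM of Mt2. Whether RNA of those cells adds to the macrophage values was not tested. Both list members measured were past the fold, with a median log2 ratio of 1.36, which was 1.06 without cells of a high doublet score. Metallothionein promoters answer metals through metal response elements. The 150 bases upstream of the RefSeq starts of Mt1 (GRCm38.p6, chr8:94178939-94179088, plus strand) and Mt2 (chr8:94172468-94172617, plus strand) are shown with TGCNCNC, searched on both strands, in capitals. The pattern is looser than the element's core TGCRCNC, where R is A or G.
Mt1: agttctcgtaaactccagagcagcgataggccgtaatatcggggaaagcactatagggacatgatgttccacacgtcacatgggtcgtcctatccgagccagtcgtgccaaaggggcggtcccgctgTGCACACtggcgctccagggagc
Mt2: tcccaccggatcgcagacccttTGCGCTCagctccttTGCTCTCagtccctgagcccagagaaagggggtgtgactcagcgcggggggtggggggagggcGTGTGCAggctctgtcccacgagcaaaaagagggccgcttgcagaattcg
Mt1 held 1 match of the loose pattern and Mt2 held 3, and 31.4% of RefSeq promoters held at least 1 over that length. The Mt2 match TGCTCTC has a T in place of R.

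Fabp5, a carrier of fatty acids, was at 114 CPM (105 to 124) in control and 314 CPM (291 to 338) in -SG members, a ratio of 2.75 (2.46 to 3.07). Non-immune cells had 3.70 and 4.41 CPM of it, and class II-high cells a ratio of 1.93. Cxcl1, a chemokine that attracts neutrophils, was at 64.6 and 172 CPM, with a ratio of 2.66 (2.29 to 3.09) against 2.31 in class II-high cells. Its non-immune levels were higher, at 187 and 403 CPM. The kinase Sgk1 had a ratio of 2.15 (1.82 to 2.55), close to 2.17 in class II-high and below 3.11 in non-immune cells. The stress gene Gadd45b was at 52.8 and 111 CPM, a ratio of 2.11 against 1.58 in class II-high cells. As a mean over cells of each cell's CPM its log2 ratio in members was 0.34 in place of 1.01. Zmynd15 stood at 60.4 and 126 CPM, a ratio of 2.09 against 1.53 in class II-high cells.

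Cd274, which encodes the checkpoint ligand PD-L1, was at 61.0 CPM (54.5 to 68.1) in control and 123 CPM (109 to 139) in -SG members, a ratio of 2.02 (1.71 to 2.38). The ratio was 1.94 in class II-high and 1.85 in non-immune cells. The lowest tertile of the class II share gave a log2 ratio of 0.63 in place of 0.96. Mid1, a ubiquitin ligase, had a ratio of 2.06 (1.67 to 2.54) in members and 1.13 (0.891 to 1.46) in class II-high cells. The difference between these ratios was not tested.

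The 10 named genes furthest down in -SG members included the receptors Cx3cr1 and Ccr2 and the Fc receptor-like gene Fcrls. Fcrls was at 274 CPM (260 to 288) in control and 110 CPM (97.0 to 125) in -SG members, a ratio of 0.403 (0.351 to 0.462), and at 0.526 in class II-high cells. Cx3cr1, the fractalkine receptor, was at 123 and 53.6 CPM, a ratio of 0.437 (0.357 to 0.532) against 0.480 in class II-high cells. Ccr2 was at 72.6 and 32.2 CPM, a ratio of 0.443, and had 0.437 in class II-high cells. Emb, a membrane glycoprotein, was at 128 and 48.3 CPM, a ratio of 0.378 against 0.602 in class II-high cells. Hacd4 was at 76.5 and 38.4 CPM, a ratio of 0.503 against 0.732 in class II-high cells.

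For several of these genes the value rested on where the cut lay or on few cells. Il1b was at 186 and 97.0 CPM, a ratio of 0.521 (0.448 to 0.604), but with each library cut at its own class II median its log2 ratio turned from -0.91 to 0.13. Ifitm1, an interferon-induced membrane protein, was at 83.9 and 34.9 CPM in members, while class II-high cells had a ratio of 1.30. Its log2 ratio moved from -1.16 to -0.13 under that cut. Hbb-bs, a haemoglobin chain, was at 362 CPM in control members and at 0 UMIs in -SG members, and 1892 of its 1898 control UMIs lay in 1 cell. Fibronectin (Fn1) had a ratio of 0.550 and Timp1, an inhibitor of metalloproteinases, of 0.503, with 1012 and 634 CPM of Timp1 in non-immune cells. Class II-high cells had ratios of 0.454 for Fn1 and 0.396 for Timp1. Without cells of a high doublet score, and with the class II median taken again, the log2 ratio of Fn1 moved from -0.84 to -1.41. That of Spp1 moved from -0.66 to -1.21.

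**Figure D4:**
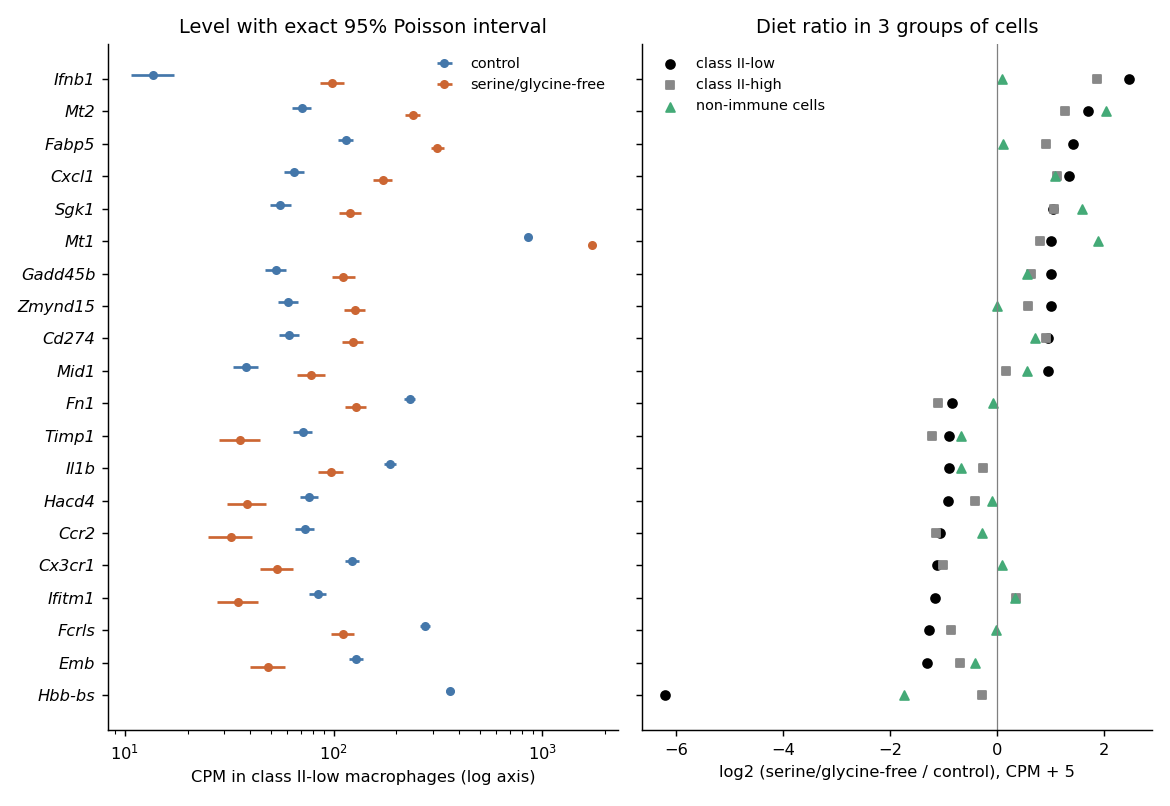
The 10 highest and 10 lowest named genes by diet ratio in class II-low macrophages: levels with exact Poisson intervals on a log axis (left; Hbb-bs had 0 UMIs in the -SG library and no point is drawn) and the log2 ratio with CPM plus 5 in 3 groups of cells (right). Mt1 and Mt2 were further right in non-immune cells than in members, and Fabp5 and Ifnb1 lay near 0 there.

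Hypoxia-inducible genes were higher in -SG members. Of 13 measured, 7 were at least 1.5-fold higher and 0 lower, and the median log2 ratio was 0.59. Vegfa, the vessel growth factor, was at 14.3 and 35.3 CPM, a ratio of 2.47 (1.78 to 3.43), with UMIs in 53 of 468 and 51 of 183 members. Ndrg1 was at 186 and 336 CPM, the lipid droplet gene Hilpda at 40.4 and 74.2 CPM, the transcription factor Bhlhe40 at 21.0 and 42.0 CPM, and the mitophagy receptor Bnip3 at 221 and 335 CPM. The glucose transporter Slc2a1 and hexokinase Hk2 had ratios of 1.53 and 1.69. Ankrd37 had 0.960 (0.804 to 1.14). The same list had a median of 0.71 in class II-high and 0.55 in non-immune cells. All 13 glycolysis genes lay above 0 with a median of 0.28, beside 0.30 in class II-high and 0.45 in non-immune cells. Of these 13, only Hk1 was past the fold, at 39.1 and 65.2 CPM. Pgk1 and Aldoa, enzymes of the pathway, had ratios of 1.44 and 1.34.

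Resident and alternatively activated macrophage genes, higher in members than in class II-high cells, were lower in -SG than in control members. Of 17 measured, 4 were at least 1.5-fold lower, 0 higher and 16 below 0, with a median of -0.35, beside -0.39 in class II-high cells. Mrc1 was at 773 and 582 CPM, a ratio of 0.753 (0.707 to 0.802). Cd163 was at 41.2 and 14.3 CPM, Mgl2 at 31.3 and 10.7 CPM, and Lyve1, a hyaluronan receptor, at 43.8 and 25.03 CPM. Retnla, an effector of interleukin-4 signalling, was at 41.0 and 7.15 CPM, from 8 control cells and 1 -SG cell. The exception above 0 was the chemokine Ccl8, at 2609 and 3565 CPM. Folr2, a folate receptor, had a ratio of 0.921 (0.842 to 1.01).

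Genes that define macrophages had unlike diet ratios. Csf1r, the receptor for the macrophage growth factor CSF1, was at 472 CPM (454 to 491) in control and 298 CPM (276 to 322) in -SG members, a ratio of 0.631 (0.579 to 0.688), against 0.834 in class II-high cells. Trem2, a lipid-sensing receptor, was at 507 and 389 CPM. Lysozyme (Lyz2) had a ratio of 0.710 in members and 1.09 in class II-high cells. Adgre1 had 0.971 (0.860 to 1.09), Ms4a7 0.971 and Apoe 0.908. Of 16 measured phagocytic and scavenger receptors, 0 were past the fold in either direction and 11 lay below 0 (median -0.09). Lysosome genes likewise had 0 of 17 past the fold, with Ctsc, a peptidase, at 2329 and 1827 CPM.

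Interferon-responsive genes were counted beside Ifnb1. Of 14 type I interferon response genes, 1 was at least 1.5-fold higher and 0 lower (median 0.09). The antiviral gene Rsad2 was at 100.3 and 155 CPM, and the ubiquitin-like protein Isg15 at 427 and 558 CPM. Of 17 interferon-gamma response genes, Cd274 was higher and 4 were lower (median -0.16, beside 0.23 in class II-high and 0.48 in non-immune cells). Socs1, a feedback inhibitor of cytokine receptors, was at 70.2 and 41.6 CPM, Gbp5 at 40.6 and 25.03 CPM, the GTPase Tgtp2 at 66.9 and 42.5 CPM, and the interferon regulatory factor Irf1 at 123 and 80.0 CPM. Gbp5 had a ratio of 1.38 in class II-high cells, and the difference was not tested. Class II presentation beyond the rule had 0 of 5 past the fold. Cd74 was at 480 and 649 CPM, a ratio of 1.35 (1.27 to 1.44), and H2-DMa at 294 and 253 CPM. Members without a class II UMI, 207 of 468 control and 60 of 183 -SG, held 198 and 223 CPM of Cd74. The other members held 641 and 799 CPM. The part of this uneven mix in the Cd74 ratio was not tested. MHC class I presentation had 0 of 14 past the fold (median 0.05), with Psmb9, an immunoproteasome subunit, at 311 and 410 CPM.

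**Figure D5:**
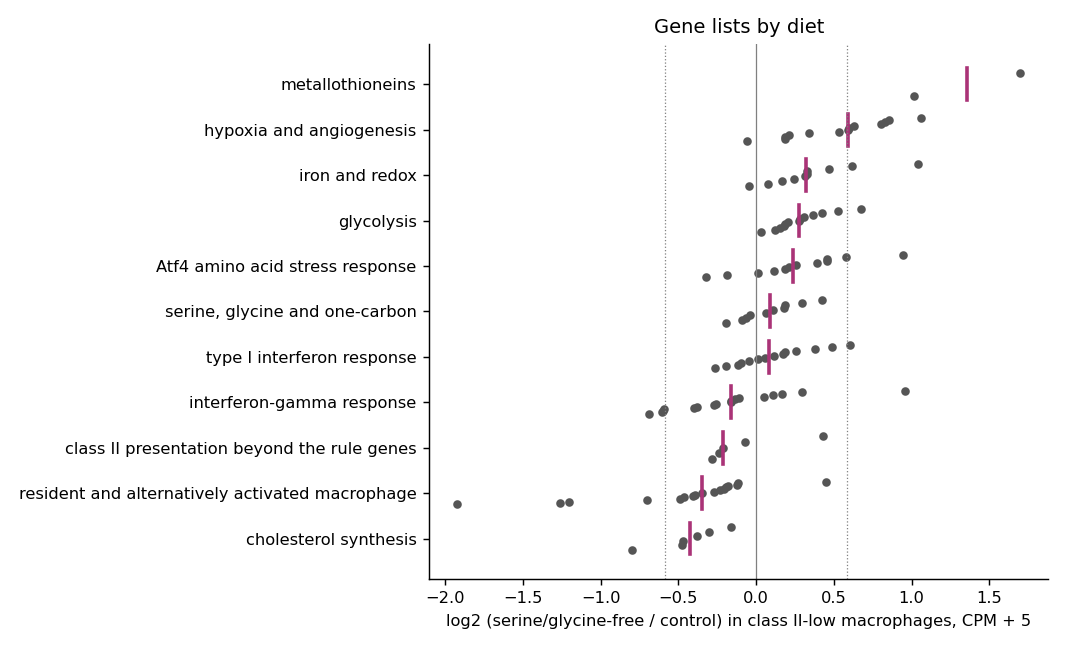
Log2 ratio by diet in class II-low macrophages (CPM plus 5) for each measured gene of 11 lists (points) with the list median (bars); dotted lines mark 1.5-fold. Metallothioneins and hypoxia genes have medians of 1.36 and 0.59, and resident macrophage and cholesterol synthesis genes of -0.35 and -0.43.

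Chemokines split. Of 10 chemokines that attract monocytes and related cells, Ccl4 and Ccl5 were past the fold upwards, and Ccl6 and Ccl24 downwards. Ccl4 was at 1621 and 2538 CPM, a ratio of 1.57 (1.51 to 1.62). Ccl5 was at 29.6 and 56.8 CPM, below its 181 and 620 CPM in class II-high cells. Ccl6 was at 1081 and 654 CPM and Ccl24, an eosinophil chemokine, at 34.3 and 10.3 CPM. Class II-high cells had ratios of 1.52 for Ccl4, 0.445 for Ccl6 and 0.332 for Ccl24. The Ccr2 ligands Ccl2, Ccl7 and Ccl12 had ratios of 0.864, 0.950 and 1.25. Among inflammatory cytokines, Cxcl2 was at 706 and 1072 CPM and Il1rn, the antagonist of interleukin-1, at 151 and 219 CPM.

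Genes tied to the missing amino acids followed. Of 10 measured serine, glycine and one-carbon genes, 0 were past the fold (median 0.09, beside -0.22 in class II-high and -0.37 in non-immune cells). Phgdh, the first enzyme of serine synthesis, was at 27.5 CPM (23.2 to 32.3) and 34.9 CPM (27.6 to 43.5) in members and at 505 and 385 CPM in non-immune cells. The mitochondrial folate enzyme Mthfd2 was at 60.8 and 83.1 CPM, a ratio of 1.37 (1.13 to 1.64) in members and 0.847 (0.677 to 1.07) in class II-high cells. Of 12 genes of the Atf4 amino acid stress response, 1 was past the fold (median 0.23): Atf3 was at 388 and 752 CPM, a ratio of 1.94 (1.82 to 2.07), with 1.16 in class II-high cells. Atf3 also stands in the list of immediate early genes, where 2 of 16 measured were higher and 0 lower (median 0.10). The other was Dusp1, at 810 and 1335 CPM. Which response Atf3 belongs to here was not tested. Ddit3 (CHOP) was at 42.9 and 60.8 CPM. Amino acid transporters had 0 of 8 past the fold (median 0.01).

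Iron and redox genes had 2 of 10 past the fold upwards (median 0.32, beside 0.30 in class II-high cells). Gclc, which makes the glutathione precursor, was at 38.1 and 61.2 CPM. Srxn1, which repairs oxidised peroxiredoxins, was at 12.01 and 29.9 CPM, with 23 of its 67 -SG UMIs in 1 cell. The ferritin chain Fth1 was at 11132 and 15382 CPM, a ratio of 1.38, against 1.43 in class II-high cells. All 6 measured cholesterol synthesis genes lay below 0 (median -0.43, beside -0.39 in class II-high cells). Msmo1 was past the fold, at 42.5 and 22.3 CPM. Tgfbi, a matrix protein induced by TGF-beta, was at 748 and 425 CPM, a ratio of 0.567 (0.528 to 0.609) against 0.568 in class II-high cells. Among checkpoint and costimulatory ligands, Vsir, which encodes the inhibitory ligand VISTA, was at 110.4 and 72.4 CPM, and the costimulatory receptor Cd40 at 55.3 and 73.7 CPM.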

How the data were processed

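Single-cell gene expression and receptor libraries (10x Genomics) were read from 2 samples. The deposited matrices hold raw UMI counts per gene and barcode, made with Cell Ranger 7.1.0 per the file headers; version 2.2.2 and build mm10 stand in the submitters' processing notes, and the conflict was not settled. Receptor contig tables, as deposited, were used to count contigs in members. The members, gene lists and alternatives were chosen with earlier results of these data known. Where a symbol had several rows, the one with most UMIs was used, and T cell receptor and immunoglobulin genes were left out.

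Within each library, a class's UMIs were added up and scaled to CPM, with exact Poisson intervals. Ratios have exact conditional binomial intervals and shares exact Clopper-Pearson intervals. Intervals cover counting error only. Log2 ratios used a pseudocount of 5 CPM, and measured genes averaged 20 CPM or more in members. Named genes, averaging 50 CPM or more with 30 UMIs in 1 library or more, were the 10 highest and 10 lowest by diet, the 12 highest and 12 lowest over class II-high cells by the smaller library ratio, up to 4 measured genes of each functional list by size, and a fixed set of macrophage genes; other list members are named for contrast and were chosen after their values were seen. Of the list symbols, Clec7a, Ero1a and Mx1 matched no row. Doublets were not removed, and cells with a Scrublet score over 0.25 (scanpy 1.11.5) were left out as an alternative: 16 control and 9 -SG members. The pooled class II median was then taken again, which gave 453 control and 180 -SG members. Values under that setting therefore hold both changes. Python 3.11.15, numpy 2.4.6 and scipy 1.17.1 were used. The ratio and interval steps were tested on simulated counts. Promoter sequences are RefSeq's for GRCm38.p6, and 7 of 9 genes looked up had an entry; H2-Ab1 and C1qa are named only.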

Additional observations from a re-analysis of the deposited data

How the results depend on the processing

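The ratio of class II-low shares stayed within its counting interval under the other settings of the cell filter and was 0.318 for the lowest tertile of the class II share. With each library's own median it is fixed by construction and was not computed. The count of genes at least 1.5-fold higher by diet, 100 as reported, was 202 as a mean over cells, 54 with a pseudocount of 20 CPM, 185 with a minimum of 5 CPM and 237 with no filter. The count lower, also 100, was 216 for the lowest tertile, 215 as a mean over cells, 155 and 38 with pseudocounts of 1 and 20 CPM, 259 with a minimum of 5 CPM and 336 with no filter. Over class II-high cells, 41 genes higher became 24 with own medians and 18 with a pseudocount of 20 CPM. A minimum of 5 CPM gave 76 and no filter 77. The 55 genes lower became 36 with a pseudocount of 20 CPM, 96 with a minimum of 5 CPM and 130 with no filter. The tertile setting gave 124 higher and 108 lower. It compared the lowest with the highest tertile, 112 control and 323 -SG cells, and left out the middle tertile. The cause of these shifts was not tested beyond the number of genes admitted. The metallothionein median was 1.06 without cells of a Scrublet score over 0.25 and 1.02 with either lower filter, which admits Slc30a1. The interferon-gamma median was -0.43 for the lowest tertile. The hypoxia median of class II-high cells was 0.26 with own medians, which put 342 control and 309 -SG cells in the low class. At the main setting of 2000 UMIs, 75.1% of -SG and 67.0% of control members had an Mt1 UMI. At 1000 UMIs the shares were 64.6% and 45.2%, and their ratio left the main interval at 1.43. Of 420 values for 28 named genes, 361 stayed within the main interval, 58 left it and 1 turned: Il1b, to 0.13 with own medians. The keratin setting left out 6 and 2 members. Of 2 settings added after the data were seen, leaving out members with over 1% non-immune genes left out 0 members, so it could not change a value for members. No paired analysis was possible because each diet has 1 library. Depth limits genes of a few CPM, such as Ly6c2 with 6 UMIs in -SG members.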

Other observations

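Within members, detection of Arg1 and Mrc1, and of Mrc1 and Folr2, was compared cell by cell. After thinning to 2000 UMIs, Mrc1 was detected in 74.2% (64.3 to 82.6) of the 97 control members with an Arg1 UMI and in 57.1% (51.6 to 62.4) of the 340 without. In the -SG library the shares were 80.0% (64.4 to 90.9) of 40 and 50.4% (41.5 to 59.3) of 129. Folr2 was detected in 47.7% of control members with Mrc1 and 24.6% of those without, and in 44.3% and 19.4% on the -SG diet. Mrc1 was detected in 52.2% (41.5 to 62.7) of control members with a Cxcl9 UMI and 63.2% (57.9 to 68.3) of those without, and in 55.0% and 58.1% in the -SG library. Thinned non-immune cells gave a background of 0.497% and 0.171% for Mrc1. Thinning left out 31 control and 14 -SG members, and unthinned shares of members with Mrc1 were 86.8% and 81.4%, at median depths of 10507 and 11237 UMIs against 20224 and 19071 in non-immune cells.

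Cycling genes were present in members of both libraries. Of 16 proliferation genes 1 was past 1.5-fold by diet, downwards, with a median log2 ratio of -0.05, beside -0.42 in class II-high cells. The cyclin Ccnb2 was at 95.3 CPM in control and 61.7 CPM in -SG members, and Top2a, which untangles DNA, at 123 and 109.9 CPM. Mki67, the Ki-67 antigen of dividing cells, was detected after thinning in 16.9% (13.5 to 20.8) of control and 16.0% (10.8 to 22.4) of -SG members, and in 14.9% and 8.05% of class II-high cells. Non-immune cells had 12.99% and 9.91%. Among heat shock genes, Hspa1b was at 23.8 and 76.0 CPM, with 54 of its 170 -SG UMIs in 1 cell.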
